A study of Arabidopsis thaliana with 6 samples.

Results

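EXORDIUM (EXO, AT4G08950) was examined on 6 Arabidopsis thaliana seedling arrays, 3 from wild type and 3 from a VFB mutant. EXO and its relatives were taken by locus, and a locus was kept when a probe set carried it as its single gene. Of 5 loci, 1 met this condition, EXO itself out of 13286 genes with such a probe set. No probe set was named here for EXL2 (AT5G64260), EXL4 (AT5G09440), EXL5 (AT2G17230) or PHI-1 (AT1G35140, also called EXL1), so these 4 were not analysed here. EXO was chosen by its signal in these same arrays, as a gene among the largest falls in the mutant. Its level in the groups is therefore a description, and no p-value is attached to it.

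EXO encodes a protein secreted into the cell wall space. Brassinosteroids, the plant steroid hormones, raise its transcript, and loss of EXO reduces cell expansion and the growth of leaves and roots. Its close relative PHI-1 (EXL1) is linked to growth under a low carbon supply. VFB genes encode F-box proteins, the subunits through which a class of ubiquitin ligases binds its targets.

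Wild type seedlings were of accession Col-0. The mutant is described as triple, without naming the mutated genes or its accession. All seedlings were grown in light, and about 80 mg of tissue and 6 µg of total RNA were used per array. An age of 10 days stands in every sample description, but for the 3 mutant samples both the source name and the protocol put it at 5 days. For mutant replicate 3 the protocol also names a No-0 wild type, against its title. The title was followed. The log2 difference of EXO, the numbers of called probe sets and the calls of listed genes were also taken without that array. Spread between replicates, likeness to EXO, marker sums and 3' to 5' ratios were taken only with all arrays. If the mutant seedlings were 5 days old, age and genotype cannot be told apart. Since whole seedlings were extracted, fewer cells of a type and less RNA per cell cannot be told apart either.

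EXO was lower in the mutant. Its MAS5 signal, a probe set intensity on a linear scale, was 7531.4, 4648.7 and 3794.7 in wild type replicates 1, 2 and 3. In mutant replicates 1, 2 and 3 it was 1024.5, 1810.4 and 2624. Every mutant array lay below every wild type array, and the nearest arrays, wild type replicate 3 and mutant replicate 3, were 1.45-fold apart. The group levels were 5325 ± 1958 for wild type and 1820 ± 799.8 for the mutant (mean ± SD, n = 3 each).

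**Figure D1:**
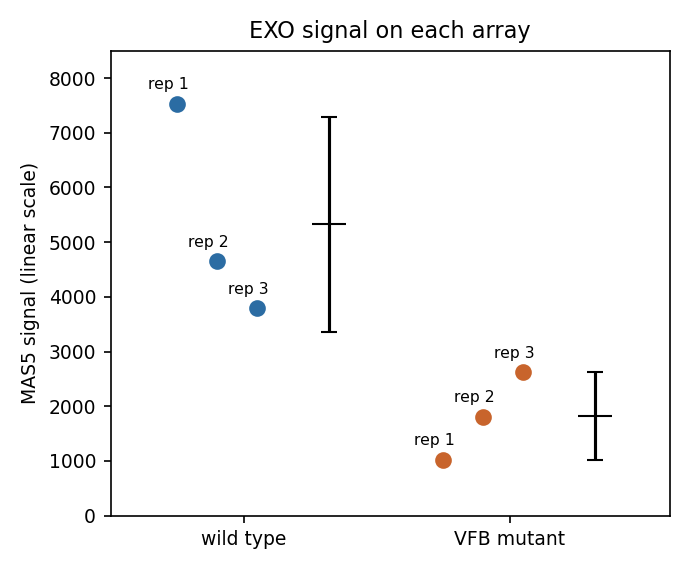
MAS5 signal of EXO (vertical axis, linear scale) on each of the 3 wild type and 3 mutant arrays, with the replicate number beside each point and the group mean ± SD (n = 3) as a black bar. Wild type arrays sit between 3794.7 and 7531.4 and mutant arrays between 1024.5 and 2624, with no overlap.

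On the log2(signal + 16) scale the difference, mutant minus wild type, was -1.58 ± 0.290, a 2.99-fold lower level. Here and below, ± on a log2 difference is limma's moderated SE, which draws partly on the spread of other probe sets. For EXO it is smaller than its own within-group SD of 0.60 would give alone. The fall of EXO was the 12th largest among the 7325 tested probe sets with 1 gene. The microtubule-linked gene SP1L2 preceded it at -1.62 ± 0.170, and AT2G34510 followed at -1.57 ± 0.175. As background, 18.6% of 13647 tested probe sets passed at an adjusted p under 0.05, 10.4% in the lower and 8.17% in the higher direction. Every mutant array lay below every wild type array in 21.2% of tested probe sets. EXO therefore shares its lack of overlap with many probe sets. Over the 9 pairs of 1 mutant and 1 wild type array the log2 difference of EXO ran from -0.53 to -2.86.

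The size of the fall depended on which arrays were included. Without mutant replicate 3, the array whose protocol names another plant, the log2 difference was -1.89. It was -1.22 without mutant replicate 1, the array lowest in EXO, and -1.30 without wild type replicate 1, the highest. Left-out arrays thus moved the fold between 2.33 and 3.71. The 4 settings that change the values themselves, other offsets and scalings, gave folds between 2.81 and 3.06. The 5 other filter, variance and block settings leave a difference of group means as it is.

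**Figure D2:**
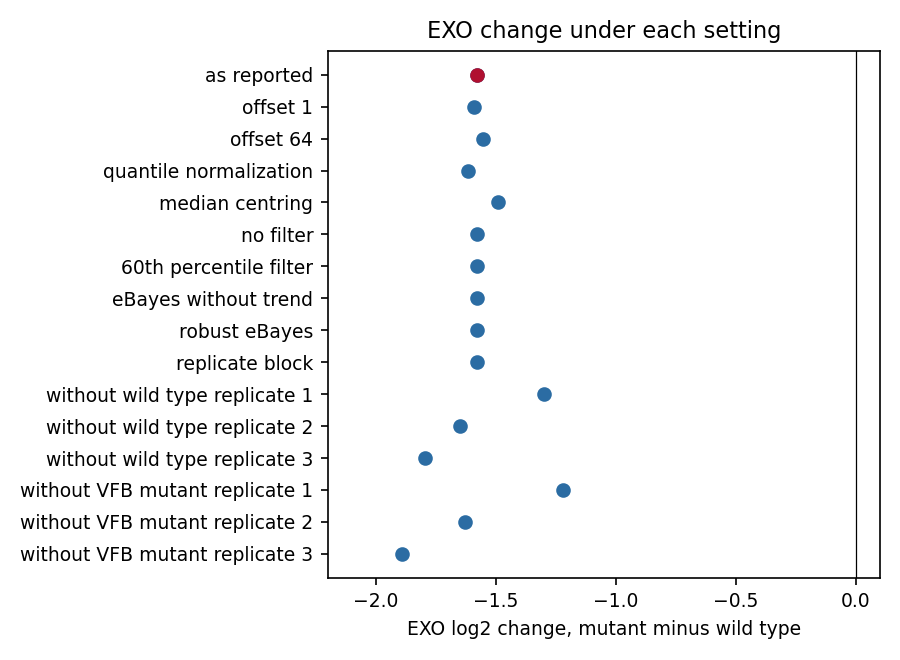
EXO log2 change, mutant minus wild type (horizontal axis), as reported (red) and under each other setting (blue). Points for left-out arrays spread from -1.89 to -1.22, those for other offsets and scalings lie between -1.61 and -1.49, and the rest equal the reported value by construction.

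EXO differed between replicates of the same group more than most transcripts did. The highest wild type array was 1.98-fold above the lowest. The highest mutant array, replicate 3, whose protocol names another plant, was 2.56-fold above the lowest. On the log2 scale the SD was 0.51 among wild type and 0.68 among mutant arrays, and 0.60 when pooled within groups. The median of that within-group SD was 0.17 over tested probe sets, and 99.5% of them had a smaller one than EXO. The comparison with probe sets of like brightness gave the same picture. Of 1851 probe sets whose mean log2 signal lay within 1 unit of that of EXO, 99.6% had a smaller within-group SD (median 0.13).

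**Figure D3:**
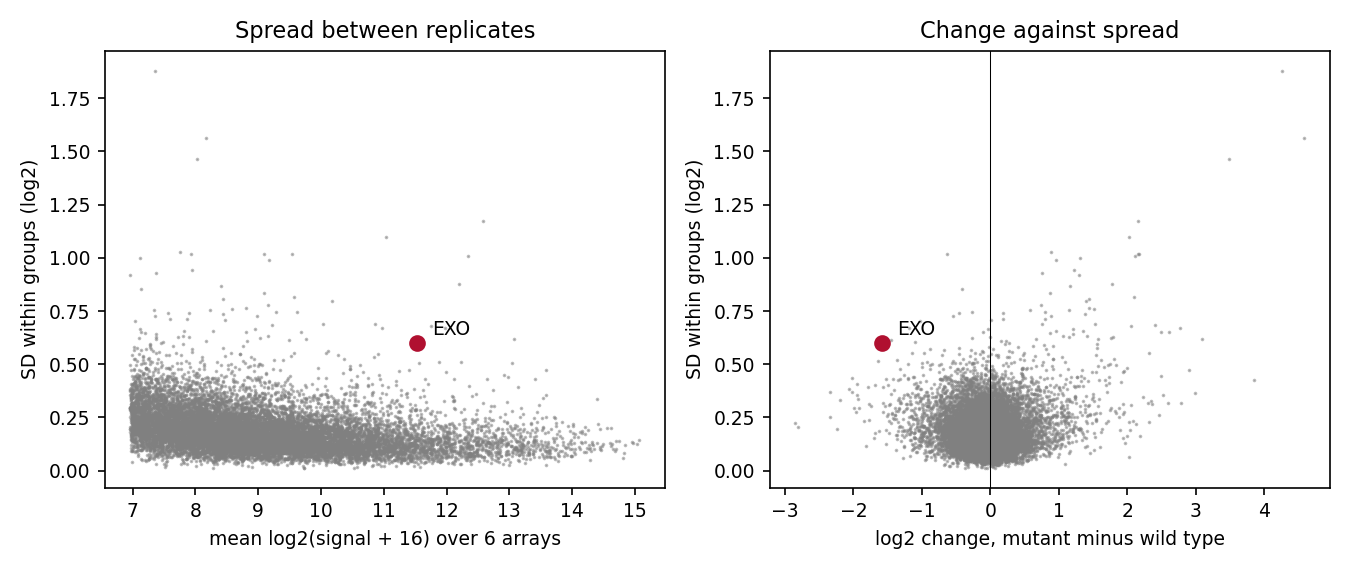
Within-group SD of log2(signal + 16) for the 13647 tested probe sets (grey) against mean log2 signal (left) and against the log2 change, mutant minus wild type (right), with EXO in red. EXO, at an SD of 0.60 and a change of -1.58, lies above nearly all probe sets of like brightness.

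The genes whose values across the 6 arrays were nearest to those of EXO included a cell wall gene. Likeness was the root mean square difference between log2 values, each gene centred on its own mean, over 7324 other probe sets with 1 gene. The nearest was EXLA1, an expansin-like gene of the cell wall, at 0.18 log2 units, against a median of 0.93. A gene equal on all arrays would also score 0.93, so that median reflects the size of the changes in EXO itself. EXLA1 was at 3079.7, 2411.8 and 2002.7 in wild type replicates 1 to 3 and at 595.8, 801.6 and 1140.3 in mutant replicates 1 to 3. Its arrays therefore took the same order as those of EXO, with wild type replicate 1 highest and mutant replicate 1 lowest. The likeness measure favours such an order, so the order is no separate result.

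AT3G19680 came next at 0.19, with signals of 1319.3, 854.4 and 786.8 in wild type and 247.9, 322.8 and 596.9 in the mutant. AT3G59350 (0.285), AT2G30930 (0.290) and AT2G34510 (0.291) followed. In each of these 5 genes wild type replicate 1 was the highest array and mutant replicate 1 the lowest. Their log2 differences, mutant minus wild type, lay between -1.33 for AT2G30930 and -1.77 for AT3G59350. Both a low value in the mutant and a like order of arrays were part of how they were chosen. These differences therefore carry no test, and the shared order is no separate result.

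Likeness was also taken within groups, after centring each gene on its wild type mean and on its mutant mean, which leaves the group difference out. The deviations of EXO were 0.56, -0.13 and -0.43 in wild type replicates 1 to 3 and -0.72, 0.09 and 0.62 in mutant replicates 1 to 3. Nearest were AT4G37240 (0.13), AT3G22240 (0.14), AT3G19680 (0.15), EXLA1 (0.18) and AT5G24210 (0.18), against a median of 0.52. A gene with equal values within each group would score 0.49. Both AT3G19680 and EXLA1 were near EXO by both measures, 2 of 5 in each list. AT4G37240 was at 717.5, 545.1 and 346.7 in wild type and 155.3, 287.3 and 362.2 in the mutant, so 1 mutant array lay above the lowest wild type array.

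AT5G24210, chosen by its likeness within groups, took the order of EXO there, with a narrower spread and without its fall. It was at 926.3, 710.3 and 601.4 in wild type replicates 1 to 3 and at 734.6, 967.1 and 1400.2 in mutant replicates 1 to 3, with a log2 difference of 0.44 ± 0.208. The groups overlapped. AT3G22240 (-0.98 ± 0.225) and AT4G37240 (-0.98 ± 0.283) were lower on average in the mutant.

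**Figure D4:**
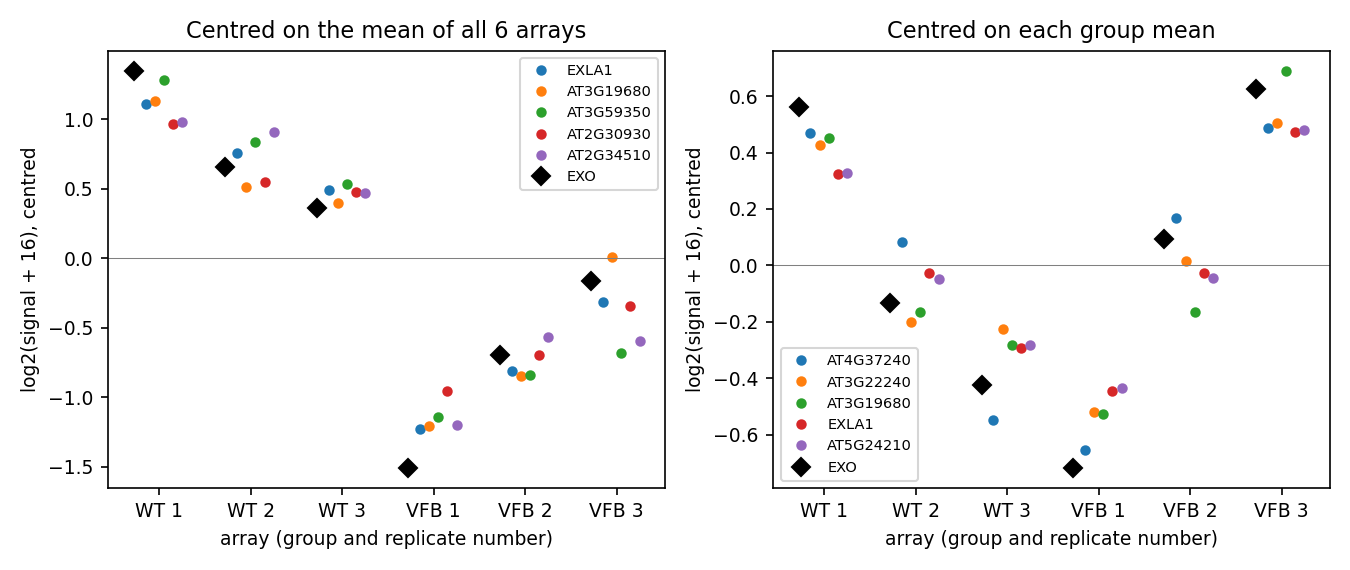
Log2(signal + 16) on each array for EXO (black diamonds) and the 5 genes nearest to it, centred on the mean of all 6 arrays (left) and on each group mean (right). EXLA1 and AT3G19680 appear in both panels, and wild type replicate 1 and mutant replicate 3 stand high within their groups in the right panel.

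Few genes of the brassinosteroid pathway had a probe set named here. Of 15 listed genes of hormone synthesis and inactivation, 0 had one. Of 18 signalling genes 2 had one, and 1 was bright enough to test. This was BIM1, a transcription factor that partners BES1, at 678.2 ± 159 for wild type and 561.5 ± 117 for the mutant, with a log2 difference of -0.26 ± 0.191 (limma, adjusted p = 0.388). The receptor-like kinase gene BRL1 was too dim to test.

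Of 19 listed brassinosteroid response genes 4 could be tested, and 3 were called lower, against 10.4% of all tested probe sets. The median log2 difference of the 4 was -0.53, against -0.05 over all tested probe sets. THE1, a receptor kinase that monitors the cell wall, was at 1417.1, 1302 and 1148.7 in wild type and at 518.1, 667.8 and 738.7 in the mutant. Its groups did not overlap, as in 21.2% of tested probe sets in this direction. Within each group the arrays of THE1 took the order seen for EXO. Those of the other tested response genes, ARL, FER and EXPA8, did not. The log2 difference of THE1 was -0.999 ± 0.141 (limma, adjusted p = 0.000445). ARL, an ARGOS-like gene that promotes cell expansion downstream of brassinosteroids, went from 490.3 ± 44.9 to 306.6 ± 61.7, a log2 difference of -0.66 ± 0.154 (limma, adjusted p = 0.0104). Within groups ARL was lowest in wild type replicate 1 (443.6) and highest in mutant replicate 1 (377.8), the reverse of EXO.

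FER, the FERONIA receptor kinase of cell growth and wall sensing, differed by -0.40 ± 0.124 (limma, adjusted p = 0.0402). Its call was lost under median centring (adjusted p = 0.126), without the brightness filter (0.0664), without the variance trend (0.0810), with a replicate block (0.0829) and without any 1 array other than mutant replicate 3. EXPA8, a cell wall loosening expansin, did not pass, at 543.5 ± 102 in wild type and 541.1 ± 95.2 in the mutant (-0.00 ± 0.164, limma adjusted p = 0.996).

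A further 3 genes with a brassinosteroid name were added after the annotation was read, and 2 of them could be tested. BRH1, a RING finger gene known for being repressed by brassinosteroids, was at 1452.1, 1772.8 and 1757.2 in wild type and at 1116, 1127.4 and 876.2 in the mutant. The groups did not overlap, a trait of 21.2% of tested probe sets in this direction. The log2 difference was -0.67 ± 0.129 (limma, adjusted p = 0.00341). EXO and BRH1 were both lower in the mutant, and the part of brassinosteroid signalling in either fall was not tested. BAT1, an acyltransferase that acts on brassinosteroids, differed by -0.56 ± 0.171 (limma, adjusted p = 0.0386). BAT1 no longer passed with quantile-normalized (adjusted p = 0.0707) or median-centred arrays (0.0831), unfiltered (0.0774), without the trend (0.0519) or with a replicate block (0.0688). Nor did it pass when replicate 1 or 2 of either group was left out. BIN4 was too dim to test, as were ANX1 and ANX2, relatives of THE1 and FER known from pollen tubes.

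**Figure D5:**
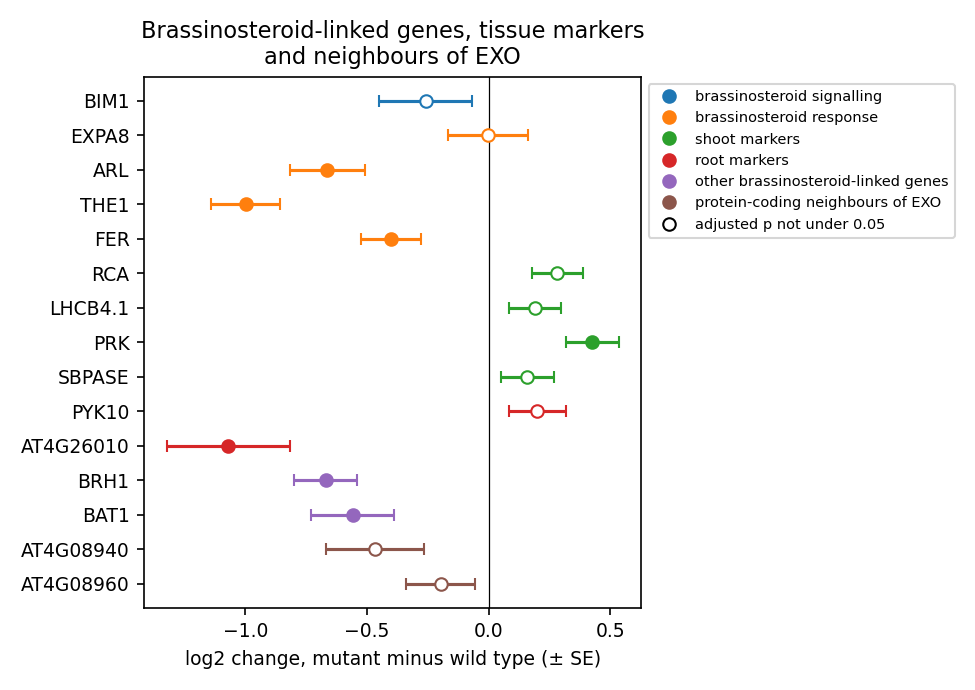
Log2 change, mutant minus wild type, with its moderated SE (horizontal axis) for the tested genes of the brassinosteroid and marker lists and for both neighbours of EXO. Filled points passed limma at an adjusted p under 0.05. To the left of zero these are AT4G26010 (-1.07), THE1 (-0.999), BRH1 (-0.67), ARL (-0.66), BAT1 (-0.56) and FER (-0.40), and to the right PRK (0.43).

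The nearest protein-coding genes on either side of EXO did not pass the test. AT4G08940 was at 148.1 ± 24.7 for wild type and 102.9 ± 18.5 for the mutant, with a log2 difference of -0.47 ± 0.201 (limma, adjusted p = 0.133). Its arrays did not overlap between groups, as in 21.2% of tested probe sets in this direction. AT4G08960 was at 548.1 ± 6.94 and 481.4 ± 86.9 (-0.20 ± 0.143, limma adjusted p = 0.379).

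Markers of seedling organs were read beside these values. Of 10 shoot markers 4 had a probe set named here. Their summed signal was 58891 to 65351 in wild type and 69687 to 77720 in the mutant. RCA and LHCB4.1 made up most of that sum. PRK, an enzyme of the Calvin cycle, passed (0.43 ± 0.109, limma adjusted p = 0.0166), and RCA (0.28), LHCB4.1 (0.19) and SBPASE (0.16) did not. Over all tested probe sets 8.17% were called higher. The size of these rises depended on the scaling. After quantile normalization the log2 differences were 0.28 for PRK, 0.07 for RCA, 0.004 for LHCB4.1 and 0.05 for SBPASE. Under median centring they were larger, at 0.52, 0.37, 0.28 and 0.25 in that order. PRK no longer passed after quantile normalization of the arrays (adjusted p = 0.0773), unfiltered (0.0555), or when wild type replicate 1 (0.0685) or mutant replicate 2 (0.0661) was left out. Of 9 root markers 3 had one, with a summed signal of 12841 to 13692 in wild type and 12493 to 17166 in the mutant, which overlapped. That sum was mostly PYK10, a root beta-glucosidase, which did not pass (0.20 ± 0.118, limma adjusted p = 0.274). AT4G26010, a peroxidase gene of root hairs, fell (-1.07 ± 0.253, limma adjusted p = 0.0112). It was dim, at 191, 184.9 and 177.8 in wild type and 56.8, 133.2 and 64.2 in the mutant. EXPA7 was too dim to test. No shoot or root marker was listed at 0 on any array.

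None of 10 markers of dividing cells, none of 10 genes of the low-carbon response and none of 3 other EXORDIUM-like loci had a probe set named here, so these were not analysed here. The 3' to 5' signal ratio of the actin control was 2.80 ± 0.231 for wild type and 3.40 ± 0.188 for the mutant (n = 3 each, exact two-sided permutation p = 0.1, the smallest that 3 against 3 allows), and it was higher in every mutant array. The GAPDH ratio was 1.13 ± 0.0577 and 1.13 ± 0.0836 (exact permutation p = 1), and the ubiquitin ratio 1.45 ± 0.101 and 1.64 ± 0.227 (exact permutation p = 0.3), each overlapping between groups. The part of organ balance and RNA quality in the fall of EXO was not tested.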

How the data were processed

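The deposited values are probe set intensities from Affymetrix ATH1 arrays, on a linear scale, made with MAS5 per the submitters' processing notes, which give no version here. The mean of each array, trimmed by 2% at both ends, was 500.0, so 1 factor per array had set the scale. The values were analysed without further scaling, as log2(value + 16), on which a fold change understates the change of dim probe sets. Of 22746 gene probe sets, the 13647 with a mean log2 value above the 40th percentile were tested, and 64 controls were left out. Probe sets were named through the platform annotation, with symbols brought up to date in RefSeq (TAIR10.1) by Entrez number. It gave 13513 probe sets 1 gene, 503 several and 8730 none.

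The test was limma 3.58.1 under R 4.3.3 (eBayes with a mean-variance trend, Benjamini-Hochberg over all tested probe sets, threshold 0.05), and the fit was tested on simulated data. The number of arrays limits the precision, and nothing in the labels ties replicates to separate cultures, so p-values cover the spread among these samples, which may be technical. The members, lists and tests were chosen with earlier results of these data known. Named are EXO, up to 4 called genes of each list (or the brightest), and the 5 genes most like EXO. The added brassinosteroid-linked genes, relatives of THE1 and neighbours of EXO were taken from gene names and positions in the annotation. The 5 genes nearest within groups, SP1L2, and list genes printed beyond the naming rule were chosen after their values were seen. With several probe sets for a gene the brightest was used. No sequence table was used here. Figures were drawn with matplotlib 3.10.9.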

Additional observations from a re-analysis of the deposited data

How the results depend on the processing

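The log2 change of EXO ran from -1.89 to -1.22 without 1 array. As every wild type array lay above every mutant array, leaving one out could not turn its direction. The calls of THE1, ARL and BRH1 held in all 15 alternatives. Shoot markers called higher went from 1 to 0 under quantile normalization and without the filter, and to 2 under median centring, and lay between 0 and 1 over left-out arrays. Root markers called lower went from 1 to 0 with a 60th percentile filter, which leaves AT4G26010 untested. Of the added brassinosteroid-linked genes, 1 in place of 2 was called lower under quantile normalization, median centring, no filter, eBayes without trend and a replicate block, and 1 to 2 over left-out arrays. Probe sets called lower numbered 871 to 1298 without 1 array, lowest without wild type replicate 2, against 1426. After median centring 1556 were called higher and 960 lower, against 1115 and 1426 as deposited. Centring on each group mean, chosen after seeing the data, kept 2 of the 5 genes most like EXO. Same-numbered arrays did not deviate together (correlations -0.20, 0.02 and -0.17), so the numbers were not taken to pair the samples. The largest correlations were between wild type replicate 3 and mutant replicate 1 (0.19) and wild type replicate 1 and mutant replicate 3 (0.18). EXO deviated in the same direction on both arrays of each of these pairs. How far this array-wide pattern enters the likeness within groups was not tested. With the replicate number as a block the log2 change of EXO was -1.58, which a block cannot change in this balanced design, and 1106 probe sets were called lower and 882 higher. The 3 arrays per group limit what can be detected, and the cause of each lost call was not tested, apart from the filter named.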
